A study of Homo sapiens with 18 samples.

Results

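In all, 10 genes of the extrinsic apoptosis pathway were followed across 6 human pancreatic cancer cell lines: the ligand TNFSF10 (TRAIL), the receptors TNFRSF10A, TNFRSF10B, TNFRSF10C, TNFRSF10D, FAS and TNFRSF21, and the intracellular CASP8, CFLAR and BID. They were taken by name from the platform annotation, which paired these 10 of its 20046 genes with 17 of 30113 probes that carry a single gene symbol. The choice was made with the levels in view, above all the difference between the lines at the later and at the earlier positions of a slide. Those levels and differences are therefore given as a description, without a test. Detection on at least 3 of 18 arrays was reached by 8 of the 10 genes, called the measured genes below, and was missed by TNFRSF10C and FAS.

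Total RNA was read on Illumina HumanHT-12 v4 BeadChips, which capture labelled cRNA on bead-bound oligonucleotide probes. MiaPaCa2, Panc1 and SU8686 were labelled resistant, and Panc0403, Panc0504 and Panc1005 sensitive, to dasatinib, which inhibits several tyrosine kinases, SRC and ABL among them. No drug given before extraction is named in the labels, and no genotype is given for any line. Every line had 3 arrays, described as biological triplicates, so each response had 9 arrays. The line is the replicate for any statement about resistance, which leaves 3 per response. The array codes put 6 arrays on each of 3 slides. Slide 1 carried Panc0403 at the earlier and Panc0504 at the later positions, slide 2 carried Panc1005 and then SU8686, and slide 3 carried MiaPaCa2 and then Panc1. Slide 2 was the only slide with a line of each response.

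Replicate 2 stood apart in every line. Across the genes tested, replicates 1 and 3 of a line correlated with r between 0.994 and 0.996, whereas replicate 2 correlated with the other arrays of its line at 0.851 to 0.897. The replicate 2 arrays of the 2 lines on a slide correlated with each other at 0.990, 0.915 and 0.991 on slides 1, 2 and 3. For slides 1 and 3 this was close to the likeness of replicates 1 and 3 of a line. Replicate 2 is therefore given apart from replicates 1 and 3, and the response differences of the measured genes are given with and without it. Whether the replicate 2 arrays hold the lines their labels name is in doubt from these values, so every line mean and every replicate 2 value below is that of the arrays so labelled. The epithelial and ductal markers KRT8, KRT18, KRT19 and SOX9 were detected on all 18 arrays. EPCAM and KRT7 were detected on 14, and were missing from replicates 1 and 3 of MiaPaCa2 and Panc1. Among the markers of other cell types, PTPRC, CD3E, VWF, PDGFRA, CPA1, CELA3A and AMY2A were detected on no array, and CD14 on all 18. PECAM1 was detected on 3 arrays, PRSS1 on 5 and DCN on 1, while CDH5 was detected on 4 and LUM on 3, all of them replicate 2. The summed level of the endothelial markers ran from 6.29 to 7.03 on the arrays of replicates 1 and 3 and from 6.44 to 10.24 on those of replicate 2, and that of the fibroblast markers from 6.72 to 7.14 and from 6.84 to 8.64. For acinar markers the ranges were 6.91 to 8.01 and 6.95 to 10.07, and for leukocyte markers 7.24 to 10.29 and 7.23 to 9.95. Their part in the replicate 2 values below was not tested. In bulk RNA of this kind, fewer cells of a type and less RNA per cell cannot be told apart.

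TRAIL is a membrane-bound or shed ligand that binds death receptors on a target cell. TNFRSF10A and TNFRSF10B carry a death domain that recruits FADD and the initiator caspase CASP8, while TNFRSF10C and TNFRSF10D bind the same ligand without passing on a full death signal. Active CASP8 cleaves executioner caspases and BID, whose cleaved form opens the mitochondrial route, and CFLAR (c-FLIP) competes with CASP8 at the receptor. Pancreatic cancer lines are known to differ widely in their sensitivity to TRAIL.

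The promoter of TNFSF10 is shown because this gene had the widest differences between lines of a slide, and that of TNFRSF21 because it had the widest difference between replicate 2 and the other arrays. Both are the 250 bases before the annotated start, from RefSeq on GRCh38.p14, in the direction of transcription. That of TNFSF10 is at chr3:172523431-172523680, and that of TNFRSF21 at chr6:47309906-47310155, both on the minus strand. Capitals mark matches to the 2 motifs searched on both strands, the interferon response core (TTTC, any 2 bases, TTTC) and the GC box core GGGCGG, of which CCGCCC is the reverse complement.
TNFSF10: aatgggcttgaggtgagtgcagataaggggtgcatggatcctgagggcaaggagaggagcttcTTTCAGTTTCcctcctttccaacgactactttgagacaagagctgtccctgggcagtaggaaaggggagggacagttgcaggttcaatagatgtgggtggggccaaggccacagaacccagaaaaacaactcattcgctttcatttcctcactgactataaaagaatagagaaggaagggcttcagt
TNFRSF21: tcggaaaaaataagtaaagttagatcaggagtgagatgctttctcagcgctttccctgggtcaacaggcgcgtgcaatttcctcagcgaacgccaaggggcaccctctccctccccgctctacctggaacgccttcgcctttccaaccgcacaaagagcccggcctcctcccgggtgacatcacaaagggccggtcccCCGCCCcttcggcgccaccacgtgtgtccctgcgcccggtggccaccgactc
The interferon response core stood in 3.02% of the 35116 annotated promoter windows of this length and in 1 of the 17 windows of these genes, that of TNFSF10. GGGCGG stood in 42.6% of all windows and in 11 of the 17, which belong to BID, CASP8, CFLAR, FAS and TNFRSF21. Windows were matched for 6 of the 10 genes. A match describes the letters and does not show that a factor binds there.

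TNFSF10 was on in some lines and not detected in others, and on every slide its level was higher in the later line. All levels are log2 normalized intensities, and a probe was called detected at a detection p-value under 0.01. Levels of different probes are not comparable. In Panc0403 replicates 1, 2 and 3 read 6.05, 6.36 and 5.60, with detection in replicate 2 alone. In Panc0504, its later partner on slide 1, they read 8.32, 7.81 and 7.93, all detected. The later line was above the earlier one on every array of slide 1.

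On slide 2 Panc1005 read 5.43, 5.24 and 5.49, none of them detected. SU8686 read 8.91, 11.56 and 8.82, all detected, and its replicate 2 was the highest TNFSF10 level of the 18 arrays. On slide 3 MiaPaCa2 read 4.97, 4.86 and 4.87, none detected, and Panc1 read 6.74, 5.36 and 6.92, detected in replicates 1 and 3. Detection thus fell on 9 of 18 arrays, 5 of them resistant and 4 sensitive. At a detection p-value under 0.05 it fell on 10, the array added being replicate 1 of Panc0403, at 0.0104. By replicates 1 and 3 the order of the detected lines was SU8686, Panc0504 and Panc1, and neighbours in this order did not overlap. Panc0403, Panc1005 and MiaPaCa2 were not detected on those arrays and have no order.

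**Figure D1:**
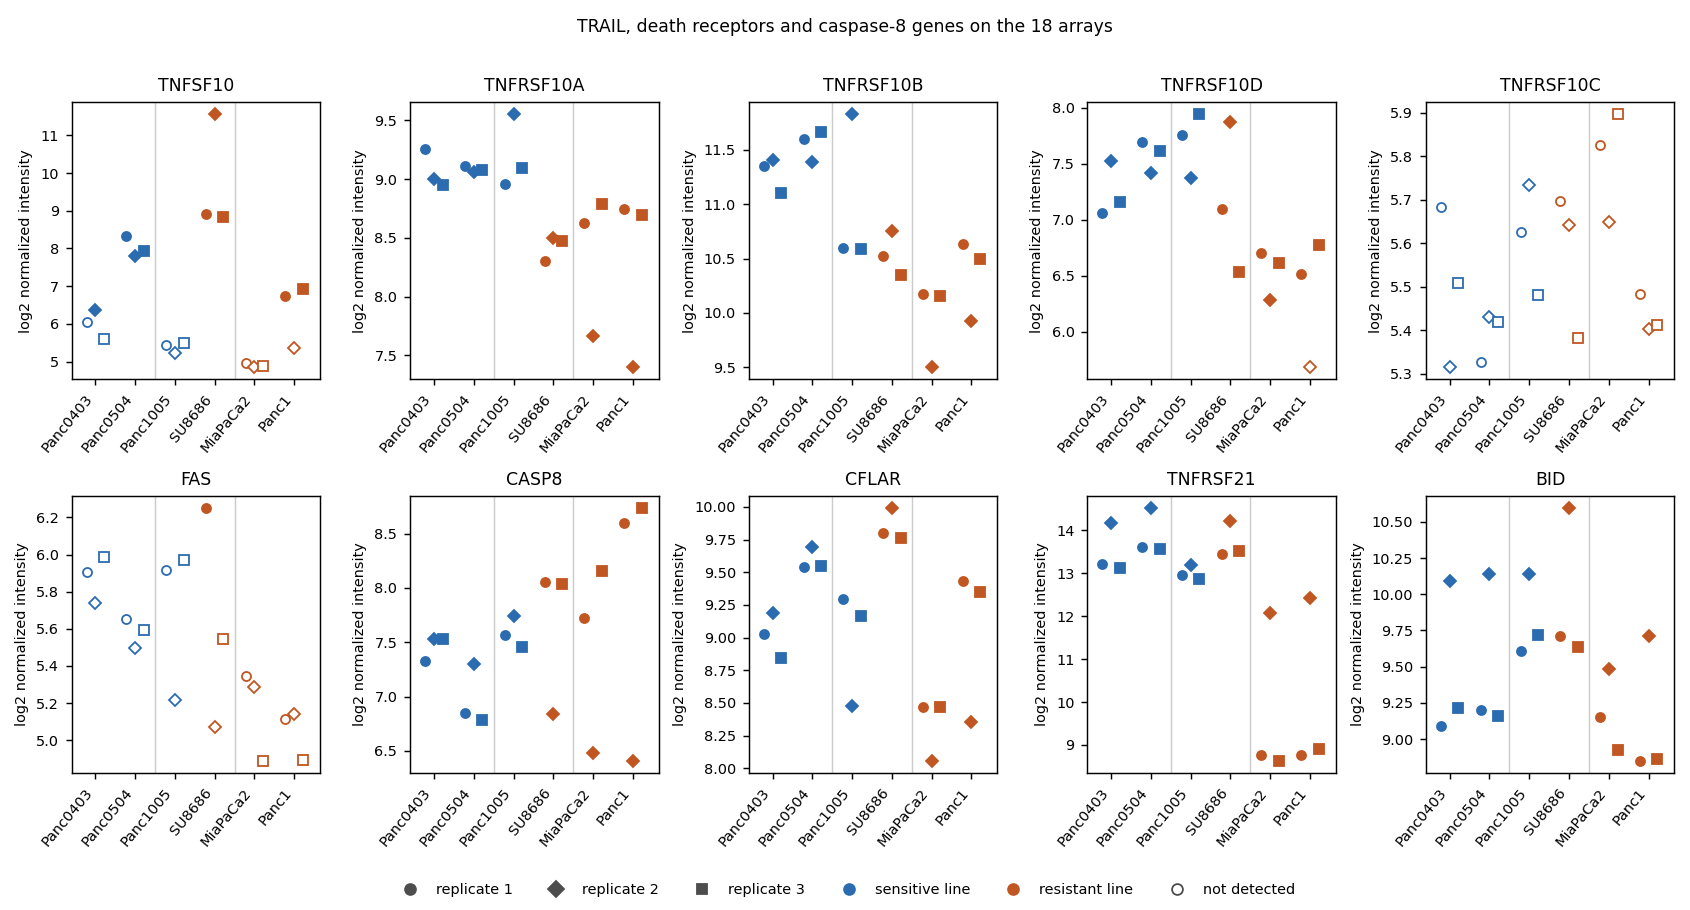
Log2 normalized intensity (vertical axis) of the 10 genes on each of the 18 arrays, grouped by line along the horizontal axis, with a marker shape per replicate (diamonds for replicate 2), colour for response and undetected values drawn open. TNFSF10 is detected on every array of SU8686 and Panc0504, in replicates 1 and 3 of Panc1 and in replicate 2 of Panc0403. TNFRSF21 is low only in replicates 1 and 3 of MiaPaCa2 and Panc1.

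In replicates 1 and 3, TNFSF10 averaged 8.13 ± 0.28 (SD, n = 2 arrays) in Panc0504 and 5.83 ± 0.32 (n = 2) in Panc0403, a difference of 2.30 on the log2 scale. On slide 2 it averaged 8.87 ± 0.06 in SU8686 and 5.46 ± 0.04 in Panc1005, a difference of 3.41. On slide 3 the averages were 6.83 ± 0.12 in Panc1 and 4.92 ± 0.07 in MiaPaCa2, a difference of 1.91. The earlier line was undetected in all 3 comparisons, so each fold has only a lower bound: at least 4.09-fold on slide 1, at least 6.55-fold on slide 2 and at least 1.72-fold on slide 3. A bound sets the brighter mean against the higher of the probe's own signal and the lowest detected signal of any probe on each dim array. The bound on slide 3 is under 2-fold, so a log2 difference of 1 is not shown there. By the readings alone, undetected ones included, 16 of the 8170 genes detected on at least 1 side of all 3 slides (0.196%) were higher by at least 1 in the later line on all 3, and TNFSF10 was the only one of the 8 measured genes among them.

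Replicate 2 gave a different size on each slide. Its TNFSF10 difference was 1.45 on slide 1, where both arrays were detected, and 0.84 with the authors' deposited log2 values. On slide 2 the difference was 6.32, at least 47.5-fold. On slide 3 both arrays were undetected, so no fold is given. SU8686 was thus above Panc1005 in all 3 replicates, while the gap between Panc1 and MiaPaCa2 was measured in replicates 1 and 3 only.

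The death receptors TNFRSF10A and TNFRSF10B were detected on all 18 arrays, and between the lines of a slide neither differed by 1 or more in replicates 1 and 3. TNFRSF10A read 9.26, 9.003 and 8.95 in replicates 1, 2 and 3 of Panc0403 and 9.12, 9.06 and 9.08 in Panc0504. It read 8.95, 9.55 and 9.09 in Panc1005 and 8.31, 8.50 and 8.47 in SU8686. In MiaPaCa2 it read 8.63, 7.66 and 8.79, and in Panc1 8.74, 7.40 and 8.69. Every sensitive array was above every resistant array, the lowest sensitive reading being 8.95 and the highest resistant one 8.79, both from replicates 1 and 3. Of all 11600 genes tested, 122 (1.05%) had arrays of the 2 responses that did not overlap.

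TNFRSF10B, by the probe of highest mean level, read 11.35, 11.41 and 11.10 in Panc0403 and 11.60, 11.39 and 11.67 in Panc0504. It read 10.60, 11.83 and 10.59 in Panc1005 and 10.52, 10.75 and 10.35 in SU8686. It read 10.17, 9.50 and 10.16 in MiaPaCa2 and 10.64, 9.92 and 10.50 in Panc1. The arrays of the 2 responses overlapped for this probe: SU8686 replicate 2 and Panc1 replicate 1 lay above replicates 1 and 3 of Panc1005.

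A second TNFRSF10B probe, annotated to the transcript NM_147187, is described here because of its values, and so was chosen with them known. It was detected on 9 of 9 sensitive arrays, at 6.34 to 7.28, and on 0 of 9 resistant arrays, where its signal ran from 4.90 to 5.70. Only 3 of 15405 probes (0.0195%) were detected on every sensitive and no resistant array, and 4 (0.026%) showed the reverse. Its line means were 6.84 ± 0.34 (SD, n = 3 lines) in the sensitive and 5.29 ± 0.33 in the resistant lines, at least 1.72-fold higher in the sensitive lines. With this probe in place of the other, limma gave an adjusted p of 0.235. Without replicate 2 it was detected on 6 of 6 sensitive and 0 of 6 resistant arrays, which the counts above already fix. It correlated with the first probe at r = 0.890 over the 18 arrays, which share slides and lines. A further TNFRSF10B probe, detected on 6 sensitive and 3 resistant arrays, correlated with the first at 0.587. Its arrays overlapped between the responses, with a difference of -0.37 (limma, adjusted p = 0.378).

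**Figure D2:**
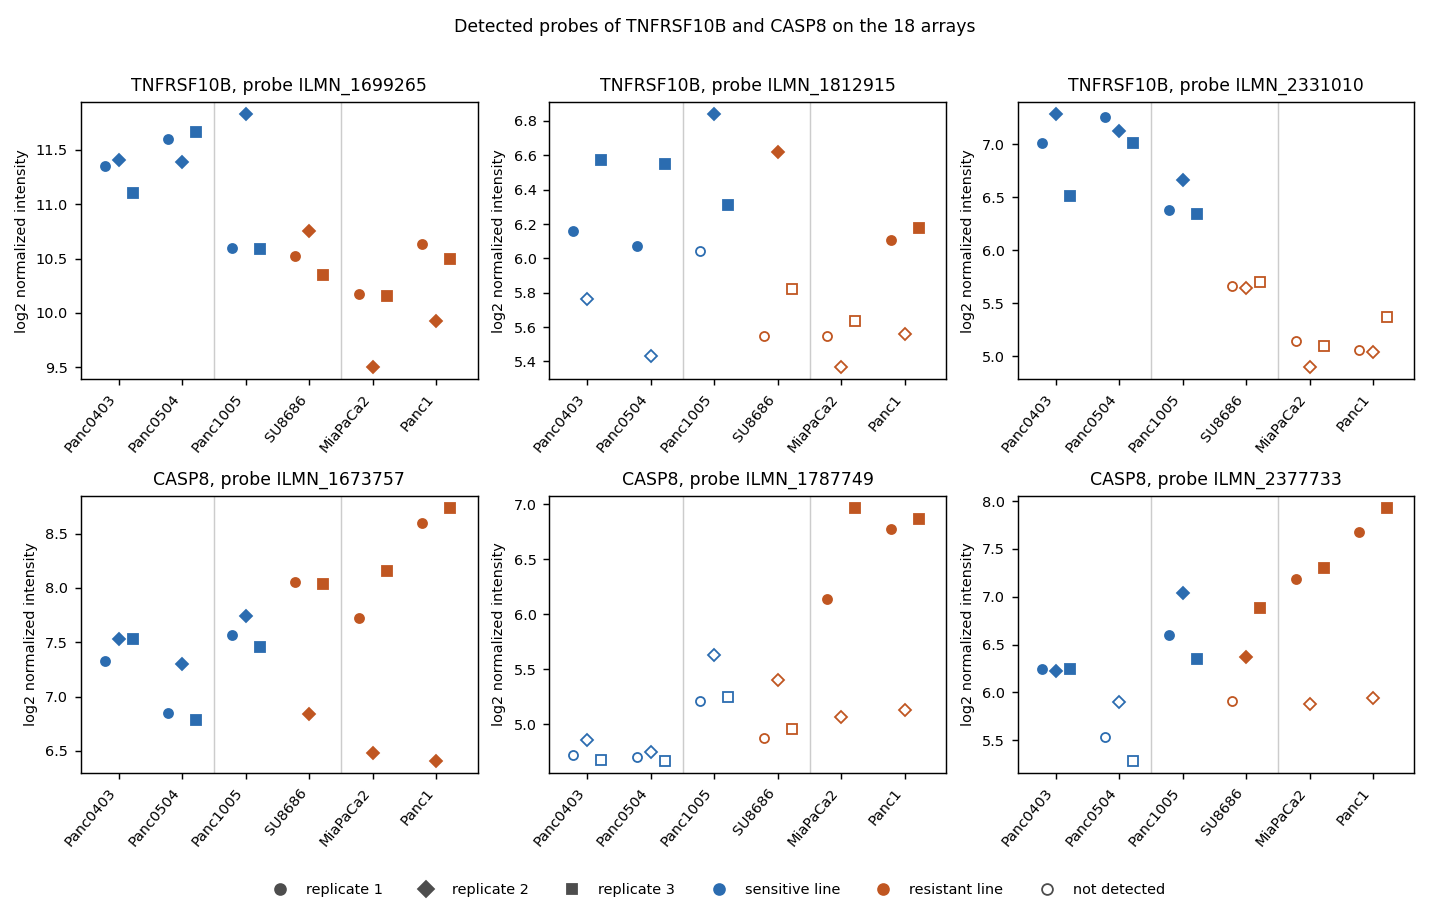
Log2 normalized intensity (vertical axis) of 3 TNFRSF10B and 3 CASP8 probes on the 18 arrays, grouped by line, with undetected values drawn open. The TNFRSF10B probe for NM_147187 (top right) is filled on the 9 sensitive arrays and open on the 9 resistant arrays.

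Of the decoy receptors, one was never detected and the other nearly always. TNFRSF10C, a membrane-anchored decoy without an intracellular domain, was detected on 0 of 18 arrays, and its signal stayed between 5.32 and 5.90. TNFRSF10D, a decoy with a truncated death domain, was detected on 17 of 18 arrays. It read 7.06, 7.53 and 7.16 in Panc0403, 7.70, 7.42 and 7.61 in Panc0504, and 7.76, 7.37 and 7.94 in Panc1005. It read 7.09, 7.87 and 6.53 in SU8686, 6.71, 6.29 and 6.62 in MiaPaCa2, and 6.52, 5.69 and 6.77 in Panc1, where replicate 2 was undetected. In replicates 1 and 3 it was 1.04 lower on the log2 scale in SU8686 than in Panc1005, without overlap, whereas the SU8686 replicate 2 was 0.50 higher.

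FAS, the receptor of the FAS ligand, was read by a single probe, whose coverage of FAS transcripts was not checked. That probe was detected on 1 of 18 arrays, replicate 1 of SU8686, at 6.25. At a detection p-value under 0.05 it was detected on 5 arrays. TNFRSF10C was detected on 3 at that threshold. At this signal over background, differences between lines in either gene were not detectable.

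TNFRSF21 (death receptor 6), a receptor with a death domain that does not bind TRAIL, was detected on all 18 arrays and split them into high and low arrays. It read 13.23, 14.16 and 13.11 in Panc0403, 13.61, 14.51 and 13.57 in Panc0504, and 12.97, 13.18 and 12.86 in Panc1005. It read 13.44, 14.22 and 13.52 in SU8686. In MiaPaCa2 it read 8.77, 12.07 and 8.63, and in Panc1 8.76, 12.42 and 8.92. The low arrays were the 4 from replicates 1 and 3 of MiaPaCa2 and Panc1, which are also the 4 arrays without EPCAM and KRT7. Replicate 2 exceeded the mean of replicates 1 and 3 by 3.37 in MiaPaCa2 and by 3.59 in Panc1, against 0.27 to 0.99 in the other lines. The part of cell type or of the replicate 2 arrays in this split was not tested. How many of all genes split the same way was not counted.

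CASP8, the initiator caspase, was detected on all 18 arrays by the probe of highest mean level. It read 7.33, 7.53 and 7.53 in Panc0403, 6.85, 7.30 and 6.79 in Panc0504, and 7.57, 7.74 and 7.46 in Panc1005. It read 8.06, 6.84 and 8.04 in SU8686, 7.72, 6.48 and 8.15 in MiaPaCa2, and 8.60, 6.41 and 8.73 in Panc1. By this probe, the 3 resistant lines lay above the 3 sensitive lines in replicates 1 and 3, without overlap. In replicate 2 the order was turned, with the 3 resistant lines at 6.41 to 6.84 and the 3 sensitive lines at 7.30 to 7.74. The share of all genes with either pattern was not counted. By line means of all 3 arrays, the responses overlapped for CASP8, whereas 21.8% of all genes tested had line means without overlap. Replicate 2 minus the mean of replicates 1 and 3 was -1.21 in SU8686, -1.46 in MiaPaCa2 and -2.26 in Panc1.

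A CASP8 probe annotated to NM_033356 was detected on 4 arrays only, replicates 1 and 3 of MiaPaCa2 at 6.14 and 6.96 and of Panc1 at 6.77 and 6.87. These are the same 4 arrays on which TNFRSF21 was low, and the share of all probes detected there alone was not counted. The correlation of the NM_033356 probe with the first CASP8 probe was 0.656 over 18 arrays. That of another CASP8 probe, detected on 12 arrays, was 0.815. In replicates 1 and 3 the latter averaged 6.39 in SU8686 and 6.47 in Panc1005, so it did not separate the responses. The fourth CASP8 probe was detected on no array.

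CFLAR, the inhibitor of CASP8 at the receptor, was detected on all 18 arrays and was higher in the later line of every slide. It read 9.03, 9.19 and 8.84 in Panc0403 and 9.54, 9.69 and 9.54 in Panc0504. It read 9.29, 8.47 and 9.16 in Panc1005 and 9.80, 9.99 and 9.76 in SU8686. It read 8.47, 8.06 and 8.47 in MiaPaCa2 and 9.43, 8.36 and 9.35 in Panc1. Differences in replicates 1 and 3 were 0.61, 0.55 and 0.92 on slides 1, 2 and 3, all without overlap and all under the log2 difference of 1 used here as the size of a call. The replicate 2 differences were 0.50, 1.51 and 0.30, also towards the later line. TNFSF10 and CFLAR were the 2 of 8 genes whose later arrays lay above the earlier ones on all 3 slides in replicates 1 and 3, a pattern found in 15.4% of the 8170 genes.

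BID, the link from CASP8 to the mitochondria, was detected on all 18 arrays and was higher in replicate 2 of every line. It read 9.09, 10.09 and 9.21 in Panc0403, 9.20, 10.14 and 9.16 in Panc0504, and 9.61, 10.14 and 9.72 in Panc1005. It read 9.71, 10.59 and 9.64 in SU8686, 9.15, 9.49 and 8.93 in MiaPaCa2, and 8.85, 9.71 and 8.86 in Panc1. Replicate 2 was the highest BID array of each of the 6 lines, by 0.45 to 0.96 over the mean of the other arrays. TNFRSF21 was the other gene of the 8 with replicate 2 on top in all 6 lines, a pattern held by 4.51% of all genes tested. A second BID probe was detected on all 18 arrays and correlated with the first at r = 0.930.

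**Figure D3:**
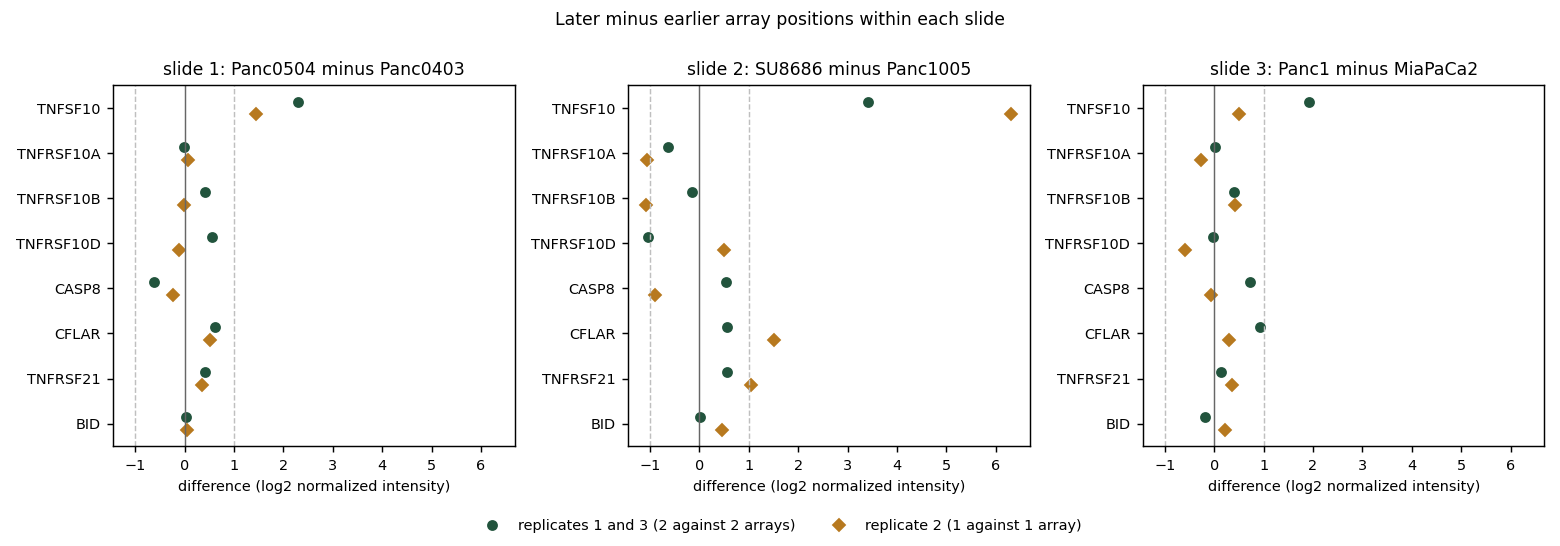
Difference of the later from the earlier line of each slide in log2 normalized intensity (horizontal axis) for each gene, with replicates 1 and 3 averaged and replicate 2 drawn separately. The TNFSF10 readings lie right of 1 on all 3 slides in replicates 1 and 3, at 2.30, 3.41 and 1.91, but the earlier line was undetected on each, and on slide 3 the fold is bounded only at 1.72.

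Counts of genes past a log2 difference of 1 put these values beside the rest of the array, and since the choice of genes used this contrast, nothing is read from them. They use the readings, those of undetected arrays included. In replicates 1 and 3, the count was 1 of 8 on slide 1, where 8.79% of all genes with detection passed. It was 2 of 8 on slide 2 against 5.77%, the genes being TNFSF10 and TNFRSF10D. It was 1 of 8 on slide 3 against 3.28%. In replicate 2 the counts were 1 of 8 against 0.834% on slide 1, 5 of 8 against 21.8% on slide 2, and 0 of 7 against 1.03% on slide 3. On slide 2 these 5 were TNFSF10 (6.32), CFLAR (1.51) and TNFRSF21 (1.03), higher in SU8686, and TNFRSF10A (-1.05) and TNFRSF10B (-1.07), lower.

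Between replicate 2 and the mean of replicates 1 and 3 of the same line, the number of these genes past 1 differed between lines. It was 0 of 8 in Panc0403 (background 19.9%), 0 of 8 in Panc0504 (25.2%) and 1 of 7 in Panc1005 (31.3%). It was 3 of 8 in SU8686 (30.9%), 3 of 7 in MiaPaCa2 (27.1%) and 5 of 8 in Panc1 (28.3%). In Panc1 TNFSF10, TNFRSF10A, CASP8 and CFLAR were lower in replicate 2, by differences of -1.47, -1.32, -2.26 and -1.03, and TNFRSF21 was higher by 3.59. TNFSF10 was undetected in that replicate 2, so its own difference is bounded only at 1.67-fold, and it counts among the 5 by its reading alone.

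The comparison the study was designed for set the 3 resistant lines against the 3 sensitive lines, each line as the mean of its 3 arrays. Its slide 2 lines are also a later and an earlier line, so it is not wholly apart from the values that chose the genes. None of the 8 measured genes passed limma's test at an adjusted p of 0.05, and 0 of 11600 genes tested did (0%), while 2191 (18.9%) had an unadjusted p under 0.05. The TRAIL receptors TNFRSF10A, TNFRSF10B and TNFRSF10D were lower in each resistant line than in every sensitive line, a separation of line means found in 21.8% of all genes. TNFRSF10A averaged 8.36 ± 0.07 (SD, n = 3 lines) in resistant and 9.12 ± 0.07 in sensitive lines, a limma difference of -0.76 ± 0.17 (SE; adjusted p = 0.237). For TNFRSF10B the means were 10.28 ± 0.31 and 11.28 ± 0.27, a difference of -1.001 ± 0.25 with a limma adjusted p of 0.239. For TNFRSF10D they were 6.68 ± 0.44 and 7.50 ± 0.23, a difference of -0.83 ± 0.28 with a limma adjusted p of 0.244.

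Without replicate 2 the differences were -0.47 for TNFRSF10A, -0.76 for TNFRSF10B and -0.83 for TNFRSF10D, with limma adjusted p of 0.333, 0.316 and 0.316, and 0 of 11600 genes were called. Slide 3 minus slide 1, a comparison of whole slides in which slide and response cannot be told apart, gave -0.76 for TNFRSF10A, -1.27 for TNFRSF10B and -0.98 for TNFRSF10D. SU8686 minus Panc1005, both on slide 2, gave -0.77, -0.46 and -0.52. That slide holds 1 line per response, and its replicates disagreed. TNFRSF10B differed there by -0.15 in replicates 1 and 3 and by -1.07 in replicate 2, and TNFRSF10D by -1.04 and 0.50. Without SU8686 limma's adjusted p was 0.0271 for TNFRSF10A, 0.0317 for TNFRSF10B, 0.0240 for TNFRSF10D and 0.00269 for TNFRSF21, with 20.1% of all genes called. These calls rest on which resistant lines entered. The resistant lines left were all on slide 3, and the sensitive lines were on slides 1 and 2. Slide and response cannot be told apart in that fit. With the arrays taken singly and the line as a random block, limma's adjusted p for TNFRSF10B was 0.0287, with 6.54% of genes called. With the replicate number added as a block to that fit it was 0.0546, above the threshold of 0.05.

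TNFRSF21 differed by -2.27 ± 1.04 (limma, adjusted p = 0.288), and its sign depended on the slide. Without replicate 2 it was -2.88 (limma, adjusted p = 0.318). It was -3.77 for slide 3 minus slide 1 and 0.72 for SU8686 minus Panc1005. CASP8 differed by 0.33 ± 0.25 (limma, adjusted p = 0.471), and by 0.96 without replicate 2 (limma, adjusted p = 0.316). Slide 3 minus slide 1 gave 1.18 for CASP8 in replicates 1 and 3 and -0.97 in replicate 2, and without replicate 3 the response difference was -0.035. TNFSF10 averaged 6.999 ± 2.50 in resistant and 6.47 ± 1.38 in sensitive lines, a difference of 0.53 ± 1.32 (limma, adjusted p = 0.842), and was 0.40 without replicate 2. These means include undetected readings. Slide 3 minus slide 1 gave -1.40, and SU8686 minus Panc1005, which is also the value with the slide as a block, gave 4.38. Its sign turned to -0.85 without SU8686 and to -0.014 without Panc1005. CFLAR and BID differed by -0.12 ± 0.42 and -0.16 ± 0.29, with limma adjusted p of 0.887 and 0.773. Without replicate 2 they differed by -0.022 and -0.14. CFLAR turned to 0.87 and BID to 0.16 with the slide as a block, to which slide 2 alone contributes. CFLAR was also 0.25 without MiaPaCa2 and 0.077 without Panc0504.

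**Figure D4:**
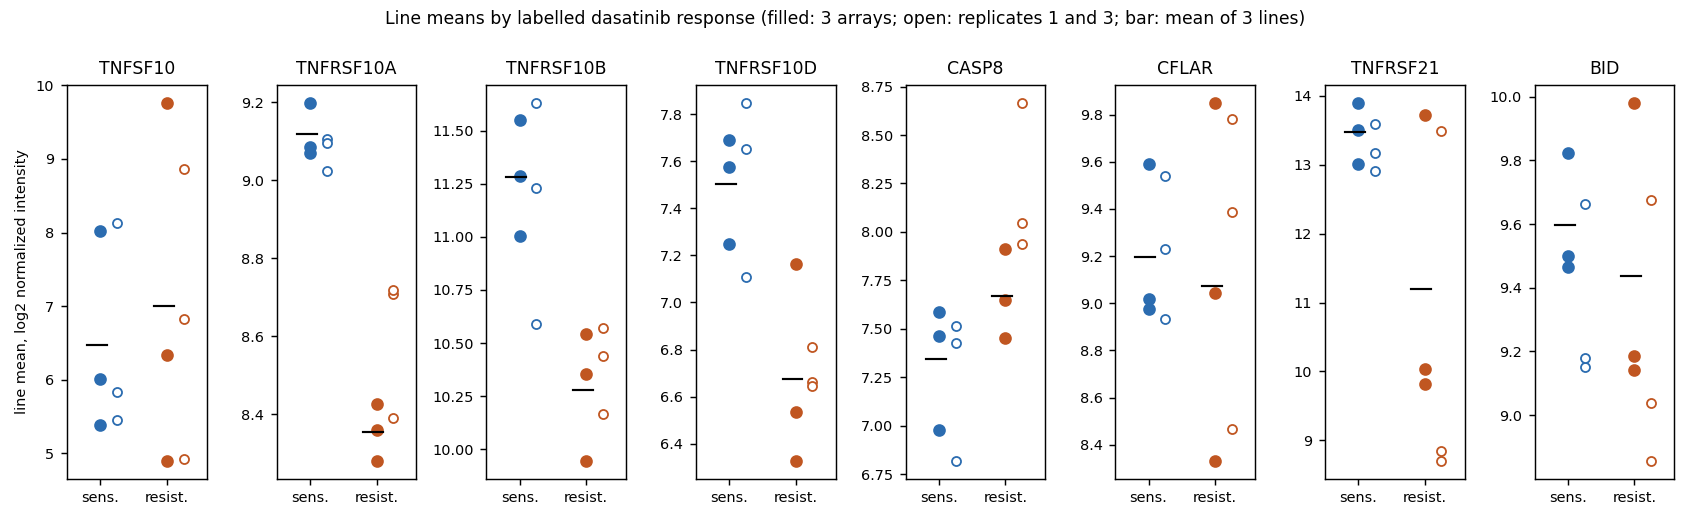
Line means of log2 normalized intensity (vertical axis) of the 8 measured genes for the 3 sensitive and the 3 resistant lines, with a filled point for the mean of 3 arrays, an open point for the mean of replicates 1 and 3, and a bar for the mean of the 3 filled points. The 3 filled points of the resistant lines lie below those of the sensitive lines for TNFRSF10A, TNFRSF10B and TNFRSF10D, and TNFSF10 overlaps between the responses.

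Around these genes, a list of 38 further ligands, receptors, adaptors, caspases, BCL2 family members and inhibitors of apoptosis had 33 annotated and 28 tested genes. FASLG, TNFRSF25, NGFR, EDA2R and CASP10 were annotated and did not reach detection on enough arrays. Between responses 0 of 28 passed in either direction, with 13 means higher and 15 lower in resistant lines. An unadjusted limma p under 0.05 was reached by 6 of the 28, beside 18.9% of all genes tested. The list's median difference was -0.07, and that of all genes tested was 0.04. The 4 largest differences were those of EDAR, TNFAIP3, BCL2L1 and TNFRSF6B. BCL2L1, whose main product opposes the mitochondrial route, differed by -1.86 ± 0.33 (limma, adjusted p = 0.237). TNFAIP3, a ubiquitin-editing inhibitor of NF-kappaB signalling, differed by -1.87 ± 0.57 (limma, adjusted p = 0.239).

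EDAR, the ectodysplasin receptor, was detected on 4 sensitive and 0 resistant arrays. Its difference was -2.75 ± 1.16 (limma, adjusted p = 0.266). All other arrays enter it as undetected readings, sensitive ones included, so no fold is given. The 4 arrays were replicates 1 and 3 of the slide 1 lines. They averaged 12.10 in Panc0403 and 11.58 in Panc0504, where replicate 2 was undetected at 5.28 and 5.37. TNFRSF6B, a soluble decoy that binds FAS ligand, differed by 1.37 ± 1.15 (limma, adjusted p = 0.517). Its level also switched with replicate 2. Replicates 1 and 3 averaged 4.85 in Panc0403 and 4.74 in Panc0504, and replicate 2 read 9.21 and 8.89. In SU8686, MiaPaCa2 and Panc1 they averaged 10.27, 10.36 and 11.34, and replicate 2 read 7.05, 5.22 and 4.90.

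**Figure D5:**
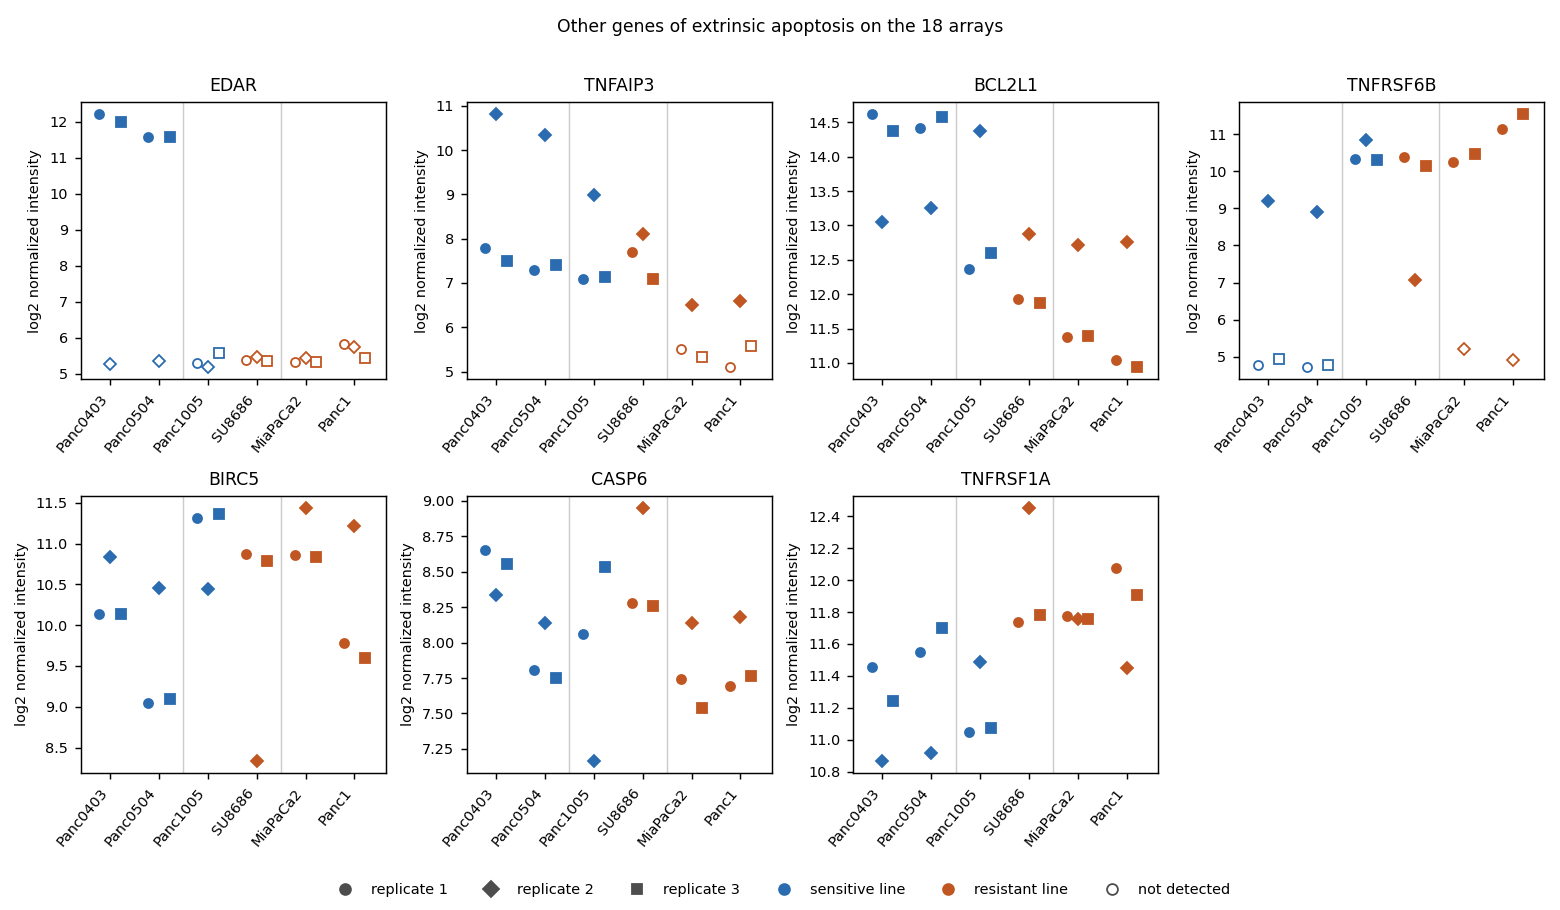
Log2 normalized intensity (vertical axis) of the named genes of the wider apoptosis list on the 18 arrays, grouped by line, with replicate 2 drawn as diamonds and undetected values open. EDAR is near 12 only in replicates 1 and 3 of the slide 1 lines, and TNFRSF6B takes opposite levels in replicate 2 and the other arrays of 5 lines.

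Between the lines of a slide, the same list had 1 of 23 genes past 1 on slide 1 (8.79% of all genes), 0 of 23 on slide 2 (5.77%) and 1 of 22 on slide 3 (3.28%) in replicates 1 and 3. Both were BIRC5 (survivin), a mitotic inhibitor of apoptosis, lower in the later line by differences of -1.07 on slide 1 and -1.16 on slide 3. On slide 2 BIRC5 differed by -0.51. In replicate 2 its differences were -0.38, -2.11 and -0.21 on slides 1, 2 and 3, so the large difference was on another slide. The next largest were CASP6, an executioner caspase, at -0.83 on slide 1 and TNFRSF6B at 0.98 on slide 3. On slide 2 the largest were TNFRSF1A, the main TNF receptor, at 0.70 and BCL2L1 at -0.58.

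The genes whose levels ran most like TNFSF10 over the 18 arrays were PCMTD1 (r = 0.935), TTC17 (0.906) and YPEL5 (0.903). Over the 12 arrays without replicate 2 these values were 0.920, 0.868 and 0.963. For CASP8 they were RPL13 (0.913), RNVU1-7 (0.883) and EIF3M (0.882), and without replicate 2 they were 0.918, 0.891 and 0.817. The arrays share lines and slides, so these are descriptions.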

How the data were processed

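Per the file headers, the authors' first table held a bead intensity and a detection p-value of 48107 probes on 18 arrays (6 lines, 3 arrays each). Which image software made them is not given in the sources used here. Log2 values of the deposited series matrix, with 13 missing and 784 probes fewer, served as an alternative. Intensities were background-corrected from the detection p-values, quantile normalized and put on the log2 scale with neqc (offset 16) in limma 3.58.1 under R 4.3.3. Probes were kept at detection p under 0.01 on at least 3 arrays, and a gene was read by its kept probe of highest mean, which left 11600 genes. Each array detected 31.0% to 35.0% of its probes at a median intensity of 110.4 to 135.2, and the number of arrays limits the precision. Response was tested with limma on line means, adjusted by Benjamini-Hochberg over all genes, after a test on simulated data. The triplicates are labelled biological, and p-values measure the spread between lines. Slide differences have no test, because they chose the genes. The genes and lists were chosen with earlier results of these data known. Of the wider list, the text names the 4 largest response differences, the 2 largest differences per slide and any call, and for TNFSF10 and CASP8 the 3 genes of highest correlation.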

Additional observations from a re-analysis of the deposited data

Results flagged for a closer look

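For 3 genes, replicate 2 moved away from the mean of replicates 1 and 3 in opposite directions in different lines, by at least 0.5 against each of the other arrays. The share of all genes that meet this rule was not counted. Past a log2 difference of 1 between replicate 2 and that mean, it ran from 19.9% in Panc0403 to 31.3% in Panc1005. TNFSF10 was 2.69 higher in replicate 2 of SU8686 and lower in that of Panc1, by a difference of -1.47 in the readings. TNFSF10 was undetected on that Panc1 array, which bounds the fold at 1.67 or more. TNFRSF10B was 1.24 higher in Panc1005 and lower in MiaPaCa2 and Panc1, by -0.66 and -0.65. TNFRSF10D was 1.06 higher in SU8686 and lower in Panc1, by -0.96 in the readings. TNFRSF10D was likewise undetected there, which bounds the fold at 1.47 or more. The differences between lines were not tested, since each rests on 1 array against 2. Their cause was not tested.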

How the results depend on the processing

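Across 7 alternatives (no background correction, offset 50, cyclic loess, the authors' values, the mean of detected probes, and without replicate 1 or 3), TNFSF10 in replicates 1 and 3 differed by 1.32 to 2.33 on slide 1, 2.09 to 3.48 on slide 2 and 1.12 to 2.05 on slide 3. TNFSF10 has a single probe, so the mean of detected probes could not change its value. Of 624 recomputed values without a test, 435 moved by less than 1 SD, 189 by more and 0 changed the sign of a called value. Of 152 response values, 8 changed sign: CASP8 without replicate 3 (-0.035, in a range of -0.035 to 0.96 without 1 replicate), CFLAR without Panc0504 (0.077), without MiaPaCa2 (0.25) and with the slide as a block (0.87), TNFSF10 without Panc1005 (-0.014) and without SU8686 (-0.85), and TNFRSF21 (0.72) and BID (0.16) with the slide as a block. The cause was not tested. Genes called for response, 0 in the reported fit, were 365 without Panc1005, 2333 without SU8686, 3 with the slide as a block, 759 with arrays singly, and 0 to 2 without 1 replicate number. The wider list then had 3, 8 and 1 calls without Panc1005, without SU8686 and with arrays singly. With arrays singly and the replicate block, 638 genes and 2 of the list were called; deviations of arrays sharing a number correlated at -0.09 to 0.94, so the numbers were not taken to pair the samples. Of the 8 genes, those past 1 in replicate 2 fell from 1 to 0 on slide 1 without background correction or with the authors' values, and from 5 to 3 on slide 2 with the authors' values. In replicates 1 and 3 of slide 2 they were 1 without background correction, with offset 50, with cyclic loess or with the authors' values, and 1 to 2 without 1 replicate. For replicate 2 against the others, Panc0403 had 1 with cyclic loess or the authors' values (0 to 1 without 1 replicate), Panc1005 0 with the mean of probes, and SU8686 and MiaPaCa2 1 each without background correction or with the authors' values (2 to 3 without 1 replicate). Panc1 had 2 without background correction and 3 with offset 50 or the authors' values. Signal over background limits FAS and TNFRSF10C, whose differences are not given, and TNFSF10, whose differences against undetected lines, here and in the report, are between readings and have only a lower bound as folds.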
